A study of Mus musculus with 4 samples.

Results

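The IRF2 regions far from gene ends are stretches of mouse genome that were called as IRF2 peaks and whose midpoint lay more than 5000 bp from the start and the end of every protein-coding gene. Of 562 regions obtained by joining the peak intervals of both IRF2 libraries, 311 (55.3%, 95% Wilson interval 51.2 to 59.4) met this rule and are called far regions. The other 251 are called gene-end regions. A far region was split further by whether its midpoint lay inside the body of a protein-coding gene (131 regions) or between such genes (180 regions), and by the library or libraries in which it had been called.

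IRF2 was mapped by chromatin immunoprecipitation and sequencing (ChIP-seq) in Lgr5 intestinal stem cells from the small intestine of Lgr5-EGFP-Ires-CreERT2 mice, which carry a reporter and an inducible recombinase at the Lgr5 locus. All samples had this one strain, with no treatment, time or age given in the labels, and the design text names 5 mice without tying them to samples. The 4 samples are 2 immunoprecipitates with one anti-IRF2 antibody and 2 inputs, and the inputs were not analysed here. The immunoprecipitates are called replicate 1 and replicate 2 in the order of the sample records, although the second deposit names its own library rep1. Every value below is 1 library's value with no mean or SD over libraries. Peak lists hold no expression values, so the stem cell label was not checked against marker genes.

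IRF2 belongs to the interferon regulatory factors, transcription factors that bind DNA through repeats of the letters GAAA spaced by a pair of bases, the core of the interferon-stimulated response element. It is known as a competitor of IRF1 at interferon-responsive promoters and as an activator of antigen presentation genes. Transcription factors also bind in introns and between genes, where enhancers act on promoters over a distance. Lgr5-positive cells sit at the base of the intestinal crypt, divide, and give rise to the other epithelial cells of the gut under Wnt, Notch, BMP and EGF signals.

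A few sequences show what lies under the far regions that reach an annotated start site or a miRNA. RefSeq promoter windows (250 bases before to 50 after a start site, GRCm38.p6) were matched by position, and 16 of 297 far regions overlapped 1 or more of them. The windows were searched on both strands for GAAANNGAAA, a pair of GAAA repeats, and for the shorter AANNGAAA, and a match of the first holds a match of the second. The window of the lncRNA gene Gm12216 (chr11:53859207-53859506, minus strand) is shown because it was the single far window with the repeat, and its matches are in capitals. That of Psma3, a proteasome subunit gene (chr12:70974373-70974672, plus strand), has the shorter motif in capitals. Windows of Aff1, an elongation complex gene (chr5:103753912-103754211, plus strand), and of Clic5, a chloride channel family gene (chr17:44188322-44188621, plus strand), are shown as the windows without a match at a region found in both libraries and at the highest region.
Gm12216 window: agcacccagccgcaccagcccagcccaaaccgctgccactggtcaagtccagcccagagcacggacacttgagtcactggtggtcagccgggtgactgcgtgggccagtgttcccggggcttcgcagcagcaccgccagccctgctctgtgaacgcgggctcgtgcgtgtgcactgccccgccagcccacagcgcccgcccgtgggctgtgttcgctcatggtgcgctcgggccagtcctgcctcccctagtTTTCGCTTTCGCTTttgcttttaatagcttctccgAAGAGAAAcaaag
Psma3 window: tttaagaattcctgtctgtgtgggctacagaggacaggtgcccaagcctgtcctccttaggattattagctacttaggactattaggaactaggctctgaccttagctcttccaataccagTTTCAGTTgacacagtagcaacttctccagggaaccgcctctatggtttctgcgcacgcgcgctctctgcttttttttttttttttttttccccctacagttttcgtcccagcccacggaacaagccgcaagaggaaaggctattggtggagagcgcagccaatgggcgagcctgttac
Aff1 window: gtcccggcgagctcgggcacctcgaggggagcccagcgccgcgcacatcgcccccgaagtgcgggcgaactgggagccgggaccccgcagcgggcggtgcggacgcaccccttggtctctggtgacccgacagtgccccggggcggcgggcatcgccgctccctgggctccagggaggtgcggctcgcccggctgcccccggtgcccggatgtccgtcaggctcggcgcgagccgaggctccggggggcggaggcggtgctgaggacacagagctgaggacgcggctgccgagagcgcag
Clic5 window: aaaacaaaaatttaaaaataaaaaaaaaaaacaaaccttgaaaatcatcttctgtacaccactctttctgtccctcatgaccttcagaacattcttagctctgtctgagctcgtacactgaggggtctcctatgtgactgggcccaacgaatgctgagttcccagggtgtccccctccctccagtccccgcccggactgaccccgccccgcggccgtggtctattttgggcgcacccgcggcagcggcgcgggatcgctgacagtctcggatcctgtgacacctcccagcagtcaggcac

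The Gm12216 window lay whole within a region called in replicate 1 alone (summit value 40, the deposited score of a peak's highest point). Its repeat match, TTTCGCTTTC on the opposite strand of the gene, began 2 bases after the annotated start. A short match that overlaps the end of the repeat, TTTCGCTT on the same strand as the repeat, began 8 bases after the start. A further short match, AAGAGAAA, began 37 bases after the start. In the Psma3 window the match TTTCAGTT began 129 bases before the start site, while the region (chr12:70974576-70975391) overlapped only the last 97 bp of the window, so this match lay outside the region. The Aff1 and Clic5 windows held neither motif. The absence of a match says only that these letters were not in this window.

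Of the 18 windows at far regions, 1 (5.56%) held the repeat, beside 3.44% of all 32851 windows. The core motif was in 2 of 18 (11.1%), beside 23.9% of all windows. At the 251 gene-end regions the repeat was in 23 of 116 windows (19.8%) and the core in 45 of 116 (38.8%). Among those gene-end windows the repeat was in 9 of 22 windows (40.9%) at regions found in both libraries. It was in 13 of 41 windows (31.7%) at regions of replicate 1 alone and in 1 of 53 (1.89%) at those of replicate 2 alone. With 18 windows the far share is imprecise, and no test was made of it. The far windows were rich in G and C, with a median of 64.2% against 52.7% over all windows, and 15 of 18 (83.3%) had 15 or more CpG pairs against 34.6% of all windows. Windows at gene-end regions were also rich in both, with a median of 62% and 81 of 116 (69.8%).

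MicroRNA genes lay under 2 of the 296 far regions on the chromosomes of the RefSeq miRNA table, and both regions were called in replicate 2 alone. Far regions were counted by overlap with a hairpin or a mature form. For gene-end regions only overlap with a hairpin was counted, and 1 had it, so the counts follow unlike rules. A region 37.6 kb from Polg (chr7:79505209-79505747, summit value 15) covered Mir9-3, a gene of the neural and developmental miRNA miR-9. It also covered the mature miR-9b forms of Gm51285 on the opposite strand, which are not shown. A region 18.6 kb from Cspg5 (chr9:110280902-110281509, summit value 41) covered Mir6236. The mature forms of Mir9-3 and Mir6236 are given with their seed, bases 2 to 8, in capitals, and these seeds differ from each other.
miR-9-5p: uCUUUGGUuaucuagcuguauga
miR-9-3p: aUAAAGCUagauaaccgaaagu
miR-6236: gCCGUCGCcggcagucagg

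Most far regions were called in 1 library. Of 311, 28 (9%, interval 6.3 to 12.7) were found in both, 208 (66.9%, 61.5 to 71.9) in replicate 1 alone and 75 (24.1%, 19.7 to 29.2) in replicate 2 alone. Inside gene bodies these numbers were 12, 81 and 38, and between genes 16, 127 and 37. By library, 237 of the 380 replicate 1 intervals (62.4%) and 104 of the 238 replicate 2 intervals (43.7%) fell in far regions. The read depth of both libraries is unknown, so absence from a list means only that no peak was called.

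**Figure D1:**
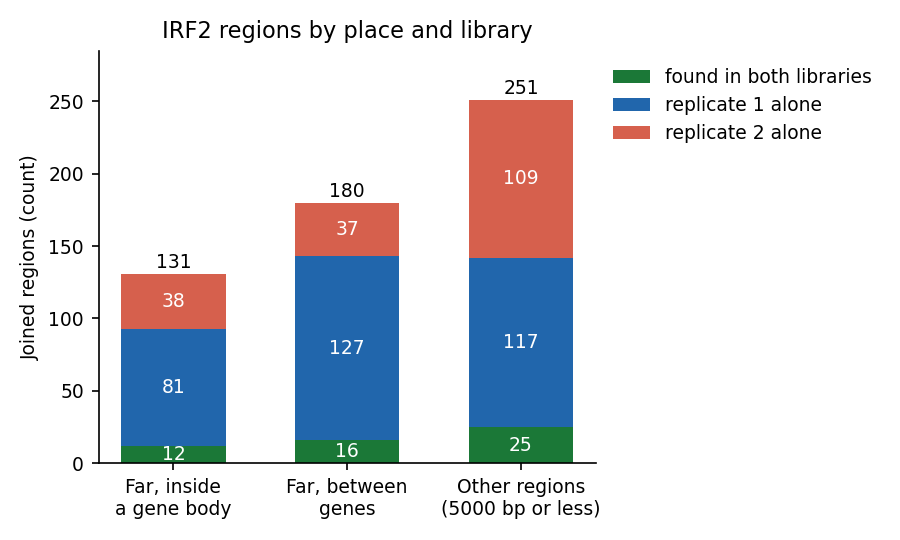
Number of joined IRF2 regions (vertical axis) inside gene bodies far from gene ends, between genes far from gene ends, and at gene ends, with bars divided by the library of origin. Regions found in both libraries number 12, 16 and 25, and replicate 1 alone makes up 127 of the 180 regions between genes.

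Far and gene-end regions did not differ detectably in how often both libraries had them. The shared fraction was 28 of 311 far regions against 25 of 251 gene-end regions (9.96%, interval 6.84 to 14.3), an odds ratio of 0.894 (two-sided Fisher's exact test, adjusted p = 1 over 4 tests). Inside gene bodies it was 12 of 131 (9.16%, 5.32 to 15.3) and between genes 16 of 180 (8.89%, 5.55 to 14), an odds ratio of 1.03 (adjusted p = 1 by the exact test). The intervals of these shares overlap widely.

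The libraries differed in how much of their own list was far. Of regions in replicate 1 alone, 208 of 325 (64%, 58.6 to 69) were far, against 75 of 184 (40.8%, 33.9 to 48) in replicate 2 alone, an odds ratio of 2.58 (adjusted p = 1.93e-06 by Fisher's exact test). This is the reverse side of the known greater gene-end share of replicate 2, not a separate observation. Adjacent calls can count a site more than once, and after joining intervals up to 500 bp apart the odds ratio was 2.36 (adjusted p = 3.32e-05 by the same exact test). Among far regions, 81 of 208 (38.9%, 32.6 to 45.7) of replicate 1 alone and 38 of 75 (50.7%, 39.6 to 61.7) of replicate 2 alone lay inside a gene body, an odds ratio of 0.621 that did not pass the test (Fisher's exact test, adjusted p = 0.202). The test regards regions as units, and with 1 library a side it compares these lists only.

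Summit values are the authors' own score per peak, of unstated unit, so levels were compared only within a list, and across the lists only a correlation over shared regions is given. In replicate 1 the 236 far regions had a median of 22 (interquartile range 18 to 33.2, lowest 13, highest 169), and gene-end regions had 23.5. In replicate 2 the 103 far regions had a median of 13 (12 to 16, lowest 10, highest 80), and gene-end regions had 14. Far regions were thus not confined to the low end of either list: the highest peak of each was far, as were 12 of the 20 best-ranked in replicate 1 and 9 of the 20 in replicate 2. These counts were near the far share of the complete lists, 62.4% of replicate 1 and 43.7% of replicate 2 intervals.

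Far regions found in both libraries had a replicate 1 median of 62.5, against 21 for those of replicate 1 alone. In replicate 2 the medians were closer, 15 against 13. At gene ends the corresponding medians were 57 and 21 in replicate 1 and 19 and 14 in replicate 2. The far shared regions between genes had a replicate 1 median of 71.5 (interquartile range 52.8 to 84.5), above the 26 (21 to 68.5) of those inside gene bodies, while their replicate 2 medians were both 15. Shared far regions were also wide, with a median of 1190 bp, against 472.5 bp for replicate 1 alone and 488 bp for replicate 2 alone. A joined region spans the intervals of both libraries, so part of its width comes from joining. These are descriptions of the lists, and no test was made of them.

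**Figure D2:**
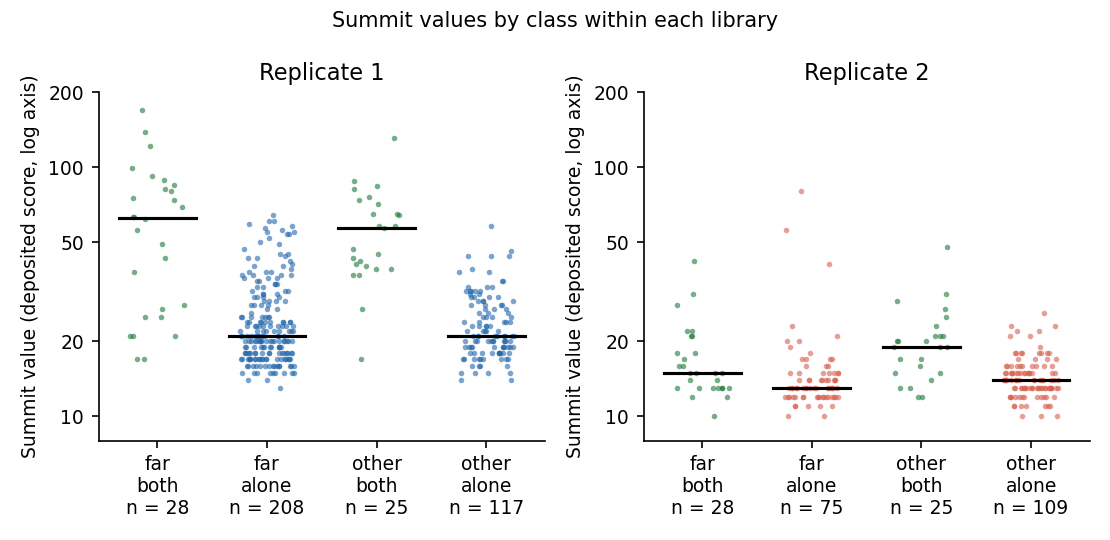
Summit value (deposited score, log axis) of each region in replicate 1 (left) and replicate 2 (right), for far and gene-end ("other") regions found in both libraries or in that library alone, with lines at the medians. Replicate 1 separates shared far regions (median 62.5) from unshared ones (21) more than replicate 2 does (15 and 13).

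Among the 28 shared far regions, those ranked best included regions nearest to or inside genes of BMP, EGF receptor family and Notch signalling. The region with the best mean rank lay 19 kb upstream of Bmp8b, a BMP ligand gene (chr4:123083799-123086846), and reached 169 in replicate 1 and 42 in replicate 2. It was the highest peak of replicate 1 and the fourth of replicate 2, and at 3048 bp, made of 4 intervals, the widest far region. A region inside Erbb4, a receptor of the EGF receptor family that binds neuregulins (chr1:68765576-68767006), had 89 and 22 and lay 31.8% along the gene from its start, 342 kb from the nearer end. The region 32.8 kb from Hes1, a Notch-induced repressor (chr16:30032181-30032979), had 80 and 21, and a separate replicate 1 peak (45) began 33 bp beyond it. Distance names the nearest gene only, and no contact with that gene was measured.

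Of the other best-ranked shared regions, 4 lay in gene bodies. Map4, a microtubule-associated protein gene (chr9:109953084-109954609), had summit values of 138 and 31, the second-highest of replicate 1, at 15.6% of the gene from its start. Msi2, an RNA-binding protein gene of the Musashi family known in stem cells (chr11:88692952-88693916), had 49 and 22 at 6.56% of the gene, with a replicate 1 peak of 17 beside it. Zswim5 (chr4:116951243-116952144) had 63 and 14 at 66.5% of the gene. Nr3c1, the glucocorticoid receptor gene, had 85 and 17 at 19.8 kb from its nearer end, and a replicate 1 peak of 17 lay 9149 bp from this region. The Map4 and Msi2 regions were among the better ranked in both lists, while Zswim5 was high in replicate 1 only.

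Between genes, the next regions by mean rank lay near Rnf225 at 6.26 kb (chr7:12936737-12937920, summit values 99 and 28) and Mlxip, which encodes a glucose-sensing transcription factor, at 6.81 kb (chr5:123463608-123465874, 121 and 21). Others were much farther from a gene end, at 477 kb from Nxph1, a secreted neurexin ligand (82 and 18), and 511 kb from Sema6d, a semaphorin (92 and 13). Noct, a circadian clock-controlled gene, was nearest at 139 kb (69 and 15), Atp6ap1l at 86.4 kb (62 and 15) and Runx1t1, a transcriptional corepressor, at 102 kb (43 and 16). Crem, a cAMP-responsive transcription factor gene, was nearest at 18.1 kb (56 and 15). Sema6d shows how the lists can disagree on rank, since its region was 6th in replicate 1 and at a tied rank of 161.5 of 238 in replicate 2.

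Further shared far regions were lower in 1 or both lists. Sdhaf3 (75 and 10, 217 kb away) had the lowest replicate 2 value of all 28, and Krt16, a keratin gene (74 and 13, 5.25 kb), and Sall1, a zinc-finger transcription factor gene (63 and 13, 83.2 kb), had replicate 2 values nearly as low. Msr1, a macrophage scavenger receptor gene, lay 108 kb from a region with 38 and 13. Sema3c, a secreted semaphorin gene, lay 27.2 kb from one with 28 and 12. Inside gene bodies, Ecpas, which encodes a proteasome adaptor, had 27 and 13, Psma3 25 and 12, Aff1 21 and 16, Triobp, an actin-binding protein gene, 21 and 18, Focad 21 and 13, Frmd5 17 and 14, and Cep85, a centrosomal gene, 17 and 13.

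Across the 28 shared far regions, values of the 2 libraries rose together, with a Pearson r of 0.58 on log2 values and a Spearman rho of 0.51. This is a description across regions of the same 2 libraries, selected for being called in both.

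**Figure D3:**
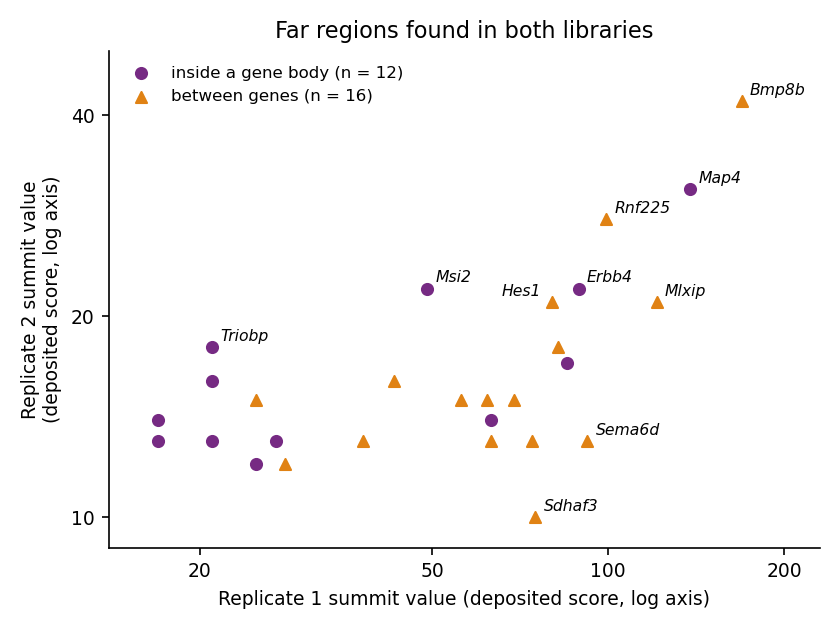
Replicate 1 against replicate 2 summit value (deposited scores, log axes) for the 28 far regions found in both libraries, with circles inside gene bodies and triangles between genes. Bmp8b (169 and 42), Map4 (138 and 31) and Rnf225 (99 and 28) have the highest replicate 2 values of the 28, and Sema6d and Sdhaf3 are high in replicate 1 only.

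Overlap by 1 bp is a loose rule for calling a region shared. When an interval of each list had to cover 50% of the other, a setting chosen after the data were seen for this count, 15 of the 28 remained. Those lost included Bmp8b, Erbb4, Mlxip, Nr3c1 and Sema6d, while the regions at Map4, Rnf225, Hes1, Nxph1 and Msi2 were kept.

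Of far regions called in replicate 1 alone, the 5 highest inside gene bodies lay in Mme, which encodes the membrane peptidase neprilysin (summit value 61), Nckap5 (56), Clic5 (55), Stat3, a cytokine-activated transcription factor (54), and Ghr, the growth hormone receptor (47). The Mme region (chr3:63353902-63354831) lay 66.8% along the gene, and a second peak of 22 followed after 53 bp. The Stat3 region (chr11:100931355-100932042) lay 15% along the gene, 7895 bp from its nearer end. The Clic5 region (chr17:44187419-44188808) covered an internal start site of the gene, 53.8 kb from the gene's outer end, so it was far from the gene's ends but not from a start. Between genes the 5 highest were nearest to Tox (64), Larp1 (61), Nuf2 (59), Pik3c3 (58) and Speer2 (57), at 243, 10.8, 421, 1090 and 779 kb.

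Replicate 2 alone had a few far regions that stood well above the rest of its list. The highest peak of that library, with a value of 80, lay 368 kb upstream of Arid1b, a chromatin remodelling gene (chr17:4626003-4626872). The second, at 56, lay inside Tmem267 (chr13:119597527-119598453), and the region over Mir6236 had 41. After these, the values inside gene bodies were 21 in Dpp9, a peptidase gene, 20 in Dapk2, a death-associated kinase gene, and 17 in both Tsc22d1 and Syt7, and between genes 23 near Gm8882, 20 near the olfactory receptor gene Olfr854 and 19 near Faap20. None of these 10 regions overlapped a replicate 1 interval, and 3 of the 5 best-ranked values in replicate 2 (80, 56 and 41) therefore had no counterpart in the other list. A further region of replicate 2 alone, inside Eri3, tied with Tsc22d1 and Syt7 at 17 and is not among the 10. Repeat content and regions prone to artefact signal were not tested.

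Far regions lay at a median of 34.4 kb from the nearest protein-coding gene end (interquartile range 13.8 to 95 kb), from 5030 to 1630778 bp. The median was 28.3 kb inside gene bodies and 40.2 kb between genes. By library it was 30.0 kb for regions in both, 35.2 kb for replicate 1 alone and 30.2 kb for replicate 2 alone. The libraries' lists differed most at long range: 58 of 208 regions of replicate 1 alone (27.9%) lay over 100 kb away, against 7 of 75 (9.33%) of replicate 2 alone and 7 of 28 (25%) of the shared ones. This difference was not tested. The farthest region of all lay 1630778 bp from Pcdh17, a protocadherin gene (replicate 1 alone, summit value 21).

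**Figure D4:**
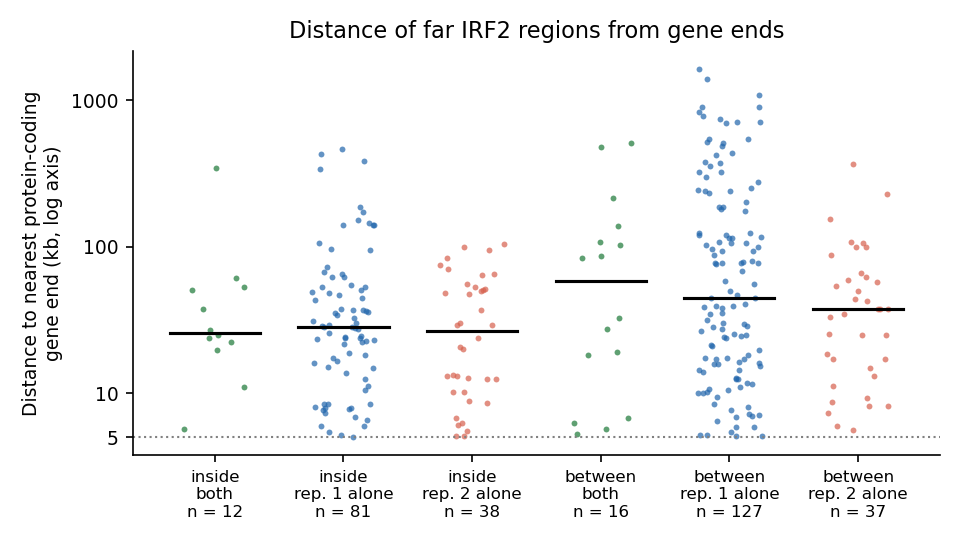
Distance of each far region to the nearest protein-coding gene end (kb, log axis), by place and library, with lines at the medians and a dotted line at the 5 kb limit. Regions of replicate 1 alone reach past 1000 kb between genes, and the most distant of replicate 2 alone is at 368 kb.

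Just inside the limit lay regions in Bcl11a (5030 bp, replicate 1 value 19), Gltp (5100 bp, replicate 2 value 12) and Opa1 (5104 bp, replicate 2 value 13). Just outside lay regions in Ubqln4 (4955 bp, replicate 1 value 18), Tacc1 (4915 bp, replicate 2 value 15) and Fosl2 (4835 bp, replicate 1 value 20). All but the Tacc1 value were at or below the median of their class in their own list. Those medians were 22 and 13 for far regions, and 23.5 and 14 for gene-end regions, in replicates 1 and 2.

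Between genes there was little lean to either side of the nearest gene. Of 139 regions whose nearest gene had a strand in the RefSeq window table, 72 lay upstream and 67 downstream. The split was 46 and 53 for replicate 1 alone, 21 and 10 for replicate 2 alone and 5 and 4 for shared regions. By chromosome, the highest counts of far regions were on 4 (27), 5 (25) and 6 (24) of the 311. They made up 64.3, 67.6 and 61.5% of the joined regions there, against 55.3% over all chromosomes. On chromosome 17, which carries the MHC, 18 of 47 regions (38.3%) were far. This was not particular to it, since the share on chromosome 8 was 39.1%.

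The 131 far regions inside gene bodies fell in 119 genes. These hosts had a median length of 121 kb against 17.2 kb for all 21887 protein-coding genes. The rule itself favours long genes, since only the 13961 genes over 10 kb can hold a midpoint more than 5000 bp from both of their ends. Among 114 of 132 pairs of a region and a host with a known strand, 31 lay in the first 25% of the gene's length, 42 between 25 and 50%, 24 between 50 and 75% and 17 in the last 25%, with a median position of 38.3% from the start. The very ends are emptied by the rule in short hosts.

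**Figure D5:**
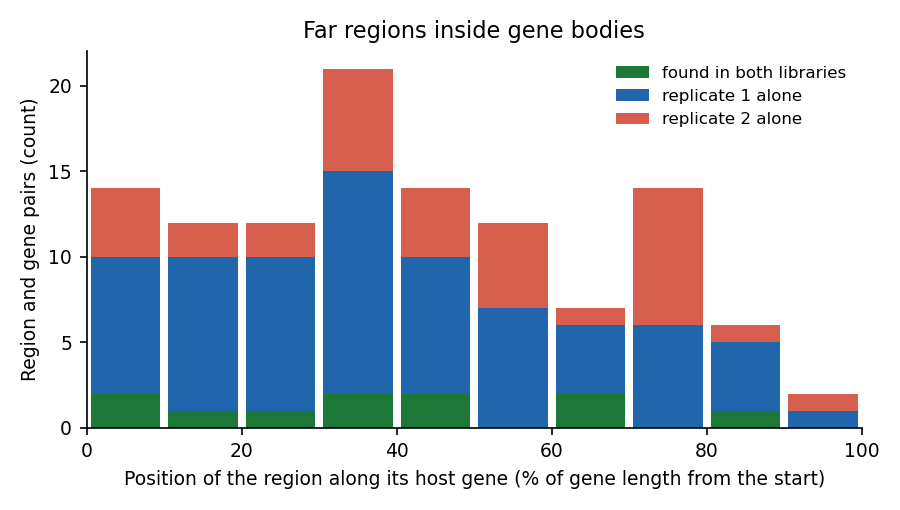
Number of pairs of a far region and its host gene (vertical axis) by position along the gene (percent of its length from the start), for 114 pairs with a known strand, divided by library of origin. The first 50% of the length holds 31 and 42 pairs in its earlier and later part, and the last 25% holds 17.

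More than 1 far region fell in 12 genes, in most of them as close neighbours. Prom1, which encodes the stem cell surface protein prominin-1, had peaks of 18 and 34 only 30 bp apart, and Hmga2, a chromatin architectural protein gene, had 22 and 41 at 245 bp. C9, Kcnh1 and Rasgrf1 likewise had pairs of replicate 1 peaks within 180 bp. Ablim1 and Eri3 differed, with peaks of both libraries spread over gaps of 13098 and up to 31464 bp and none shared. The regions in Nr3c1 were also apart. Over all far regions, 29 pairs lay within 1000 bp of each other (median gap 142 bp, range 30 to 593), and merging them left 282 loci. Both members came from replicate 1 alone in 19 pairs, a shared region stood beside one of replicate 1 alone in 9 and beside one of replicate 2 alone in 1, and no pair was of replicate 2 alone. So 8 of the 28 shared regions had a further peak at their side.

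A minority of far regions lay close to a start of transcription that is not an outer gene end. The 14 far regions on chromosome 18 were not analysed for start sites. Within 1000 bp of an annotated start there were 22 of 297 (7.41%), and 155 (52.2%) were over 25 kb from any. The share overlapping a promoter window was 12 of 125 inside gene bodies (9.6%, 5.58 to 16) and 4 of 172 between genes (2.33%, 0.908 to 5.83). By library it was 4 of 26 shared regions (15.4%, 6.15 to 33.5), 6 of 199 of replicate 1 alone (3.02%, 1.39 to 6.42) and 6 of 72 of replicate 2 alone (8.33%, 3.88 to 17). Internal starts of Aff1, Triobp and Psma3 were the shared ones inside genes. All 6 of replicate 2 alone were inside gene bodies, at Nfyc, a CCAAT-binding factor subunit, Kmt5a, a histone methyltransferase, Osbp2, Rreb1, Fancc and Tsc22d1, with values from 13 to 17. These differences were not tested.

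Non-coding genes ended within 1000 bp of 32 of the 311 far regions (10.3%, 7.38 to 14.2), a share close to that of gene-end regions (29 of 251, 11.6%, 8.17 to 16.1). The nearest such end belonged to a lncRNA gene for 21 regions, a pseudogene for 5, a transcribed pseudogene for 2, a miRNA gene for 2 and an immunoglobulin constant-region gene for 2. Only 1 of the 28 shared regions was among them. Replicate 1 alone contributed the region at A530013C23Rik, 7.7 kb downstream of Cebpb, a C/EBP transcription factor gene (summit value 34), regions of 25 and 18 at Gm31386 near Numb, a Notch inhibitor gene, and one of 30 at H2-T10, an MHC class I-like pseudogene. It also held the regions at the immunoglobulin genes Igkc (25) and Ighg2c (21). Replicate 2 alone had a region of 13 at Gm52067, 6.01 kb upstream of Sox4, and one of 16 at Gm5036 near Nr2e1. Of the 180 regions between protein-coding genes, 36 lay within the body of a non-coding gene, 26 of them a lncRNA gene. No share for gene-end regions or for the sequence between genes is given beside these counts, so they show no preference.

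Genes of gut stem cells and their signals were among those with a far region. A gene counted when a far region lay in its body or, between genes, had it as nearest within 100 kb, which held for 225 of 21887 protein-coding genes (1.03%). Over 11 lists, 13 of 270 genes (4.81%) did. Of these 13, 5 (Bmp8b, Erbb4, Hes1, Msi2 and Mme) were already known to lie at or near such peaks when the lists were written, so the count is no independent evidence, and 8 were not. A shared far region was at 5 of 270 (1.85%), against 0.101% of all genes, and 4 of those 5 were known. Long genes are favoured, and gene length was not matched.

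Among 24 stem cell genes, 3 had a far region: Msi2, Prom1 and Aqp4, a water channel gene with a replicate 1 peak of 15 at 13.9 kb. Of 37 genes of Wnt, Notch, BMP and EGF signalling, 4 did: Bmp8b, Erbb4, Hes1 and Smad1, which carries BMP signals and had a replicate 1 peak of 23 in its body (chr8:79370523-79371293). Of 25 absorptive lineage genes, 3 did: Mme, Gata4, a small-intestinal identity factor (19, in its body), and Klf4, a differentiation factor, 15.5 kb downstream of which lay a peak of 34 (chr4:55511285-55512057). All of these but the shared ones came from replicate 1. Sox4 was the single one of 28 secretory lineage genes, from replicate 2 alone.

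Several lists had no member with a far region. None of 20 listed MHC class I antigen presentation genes, 12 IRF family genes or 26 cell death genes did. Outside the lists, H2-T3, an MHC class I family gene, lay 15.8 kb from a replicate 1 peak of 20 upstream of it. Plscr1, an interferon-inducible phospholipid scramblase gene also on none of the lists, held a replicate 1 peak of 22 in its body. Both are named here after their values were seen. At the background of 1.03%, lists of these sizes can hold none without standing apart. Among markers of other cell types, Itgam was the only one of 15 myeloid genes (replicate 1, 16, at 11.8 kb), and none of 18 lymphocyte or 16 stromal genes had a far region. A peak beside a marker gene does not measure its expression, and the part of other cells in these lists was not tested.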

How the data were processed

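The 2 IRF2 libraries were analysed from deposited interval and summit tracks. Per the submitters' processing notes, reads were aligned to mm10 with BWA 0.7.12 and peaks called with MACS. The sources used here do not give thresholds, filters or read depth. Per the file headers, calling was done on each library by itself. The deposited summit track gives the authors' score per peak, a whole number of unstated unit. A track labelled rep2 in the replicate 2 deposit equalled all 380 intervals of replicate 1 and was counted once.

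Intervals overlapping by 1 bp were joined, and all 562 joined regions matched the deposited merged regions. Distances ran from midpoints to the ends of 21887 protein-coding genes (RefSeq, GRCm38.p6, the assembly of mm10). Strand came from the RefSeq promoter windows. Classes were compared by two-sided Fisher's exact tests (scipy 1.17.1) with Benjamini-Hochberg adjustment over 4 tests. Wilson intervals (95%) cover counting error only. Joining, tests and motif search were checked on simulated data.

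Named regions were the 15 best shared regions by mean rank, the 5 highest per library and place, up to 10 members per list, 15 at non-coding genes, 3 on each side of the limit and the farthest per class. Some items that this selects are not reported here. Other named regions were chosen after their values were seen. Members and lists were chosen with earlier results of these data known.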

Additional observations from a re-analysis of the deposited data

How the results depend on the processing

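Over 10 alternatives the number of far regions ran from 105 to 346, against 311. It was 144 with the higher-scored 50% of each list, and 105 and 237 when replicate 1 or replicate 2 was left out. The number found in both libraries, 28, ran from 14 to 32. It was 14 with the higher-scored 50% and 15 with a reciprocal overlap of 50%. These settings had been intended for other results and were applied to this count after the data were seen. Both fall by construction. The odds ratio of the shared fraction inside gene bodies against between genes, 1.03, fell to 0.861 with a limit of 2500 bp, 0.989 when joining within 500 bp, 0.581 with the higher-scored 50% and 0.973 with the summit as position (added after the data were seen), and reached 2.89 with the reciprocal overlap, none past the threshold of Fisher's exact test. The cause was not tested. The far share of replicate 1 alone against replicate 2 alone kept its direction and stayed past the threshold in 8 of 8 alternatives (odds ratio 2.36 to 3.03). The other odds ratios kept their direction and did not pass, at 0.585 to 0.966 for shared far against gene-end regions and 0.547 to 0.66 for the share inside gene bodies.

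No paired analysis was possible because the 2 IRF2 libraries form 1 group and the inputs were not analysed here. The intended search for IRF motifs within whole regions, and its alternatives, were not run, and only promoter windows were searched. Read depth is unknown, so no limit from it can be stated as a number.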
